A study of Arabidopsis thaliana with 20 samples.

Results

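The rtfl9 quintuple mutant of Arabidopsis thaliana, the thale cress, was compared with the Col-0 wild type in RNA from inflorescences. The comparison used 6 of the 15 libraries in the deposited table, namely replicates 1, 2 and 4 of the mutant (genotype dvl8 dvl11 rtfl9 rtfl11 dvl19) and replicates 1, 2 and 3 of wild type. It covered the 19549 genes, of 37336 in the table, that reached 1 RPKM (reads scaled to gene length and to sequencing depth) in at least 3 of the 6 libraries. The dvl1 quintuple (genotype dvl1 dvl8 dvl11 rtfl11 dvl19; replicates 2, 3 and 4), which shares 4 of its 5 mutated genes with the rtfl9 quintuple, served as the nearest comparison. The remaining 6 libraries belonged to dvl1-1D and 35S:DVL8, in which a DVL gene is overexpressed. The plants were described as whole inflorescences whose oldest flower was at anthesis, while the extraction notes also named flowers after anthesis, and no plant age was given. The authors had set aside replicate 3 of the mutant and replicate 4 of wild type as outliers.

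DVL/RTFL genes (DEVIL/ROTUNDIFOLIA-LIKE) encode small plant peptides that change the shape of leaves, flowers and fruits when overexpressed. An inflorescence with open flowers holds meristems, floral buds of every age, anthers and pistils. Its RNA therefore includes transcripts of the tapetum, the anther layer that feeds young pollen and builds its outer wall (the exine), and of mature pollen, which stores RNA for the growth of the pollen tube. In such bulk tissue, fewer cells of a type and less RNA per cell cannot be told apart.

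Wild-type libraries held 22752367, 28510627 and 33367920 gene-assigned reads, and mutant libraries 31603508, 27629337 and 22471893. Along the leading principal component of the 6 libraries (46.2% of the variance), wild type lay at -8.43, -13.9 and -12.2 and the mutant at 4.67, 3.01 and 26.8. Replicate 4 of the mutant thus stood apart from its own group. It had 14 genes more than 2-fold above and 39 more than 2-fold below both other mutant libraries, on the log2(RPKM + 1) scale used throughout. The same counts were 2 and 34 in mutant replicate 1, 11 and 4 in mutant replicate 2, and at most 3 and 6 in a wild-type library. The floral markers AP1, AG, SEP3 and AP3 and the meristem gene STM were well detected in all 6 libraries, with AP1 between 55.6 and 64.9 RPKM and STM between 45.5 and 49.4 RPKM. LFY, the floral meristem gene, was low, at 1.15, 0.84 and 0.87 RPKM in wild type and 1.4, 1.44 and 2.10 RPKM in the mutant (log2 fold change 0.43 ± 0.16, adjusted p = 0.214).

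The mutated genes came first, as a check of the labels. DVL11 (AT2G39705), the one mutated gene with enough reads to be tested, stood at 2.48, 1.74 and 2.37 RPKM in wild type and 0.992, 1.16 and 1.46 RPKM in the mutant. The groups did not overlap, with 272 reads against 141, but the difference did not pass the threshold (log2 fold change -0.54 ± 0.13 SE, adjusted p = 0.0576). This check turned on the processing: DVL11 passed with median-of-ratios scaling (adjusted p = 0.0454), quantile normalization (0.0344), array weights (0.0276) and without both libraries that stand apart (0.0441), and reached up to 0.196 under the other alternatives. In the dvl1 quintuple, which carries the same mutated gene, DVL11 stood at 1.88, 2.24 and 1.84 RPKM. RTFL11 (AT1G17235) had 21 reads over the wild-type group and 27 over the mutant group. DVL8 (AT3G55515) had 5 and 1. RTFL9 (AT1G53708), the gene that sets this mutant apart from the dvl1 quintuple, and DVL19 (AT3G14362) had 0 reads in all 6 libraries, so their loss could not be seen in these levels. Of the 24 family members, 9 were tested and none passed the threshold. With 1.28% of all genes passing, the lack of calls is no result about the family. DVL6, the most abundant, was at 24.6, 22.3 and 22.9 RPKM in wild type and 25.8, 26.5 and 26.2 RPKM in the mutant (0.16 ± 0.05, adjusted p = 0.114). DVL3 was at 12.4, 9.90 and 12.6 RPKM against 9.59, 8.71 and 6.08 RPKM (-0.48 ± 0.15, adjusted p = 0.139), lowest in the library that stands apart. The summed level of the family overlapped between the groups, from 59.8 to 64.5 RPKM in wild type and from 58.3 to 64.4 RPKM in the mutant.

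Of the 19549 genes, 250 differed between the mutant and wild type at an adjusted p under 0.05 (1.28% of those tested), by limma with a mean-variance trend and Benjamini-Hochberg adjustment. Of these, 66 rose (0.338%) and 184 fell (0.941%). The 184 falls were mostly of moderate size, with a median log2 fold change of -0.77, and included genes known from late pollen and the pollen tube. The 66 rises were mostly small, with a median of 0.26, and included genes of ribosomes and the nucleolus. The median over all genes tested was 0.02. Only 12 genes changed at least 2-fold (0.0614%), 7 upward and 5 downward, and 6 of these 12 were annotated as non-coding RNAs or pseudogenes. The 3 libraries of each group did not overlap in any of the 250 genes. A call on these same libraries largely ensures this, so it adds no support to the calls. Over all genes tested, 12.1% did not overlap in the upward and 9.16% in the downward direction.

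**Figure D1:**
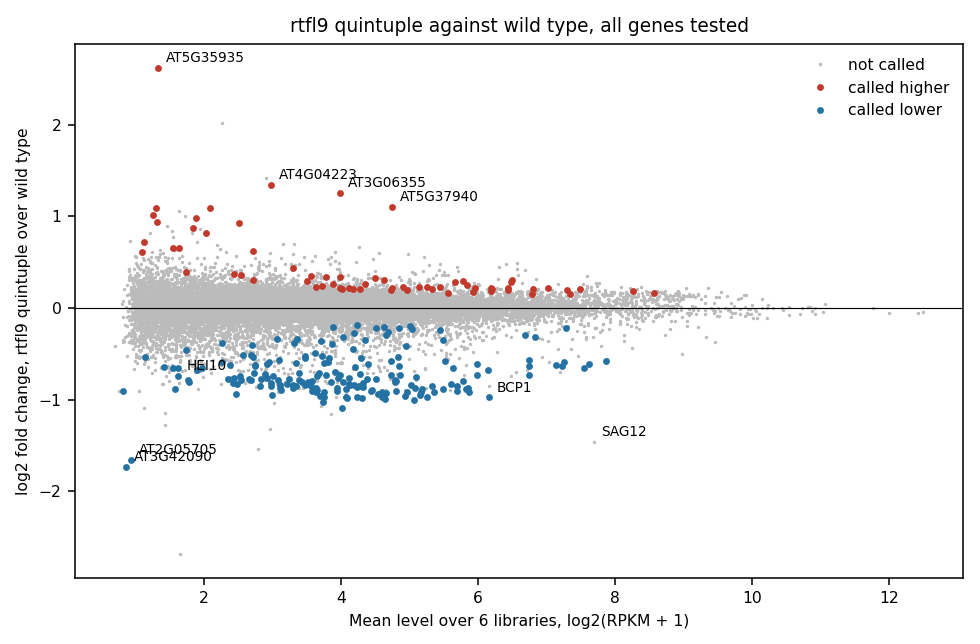
Log2 fold change of the rtfl9 quintuple over wild type (vertical axis) against the mean level over the 6 libraries in log2(RPKM + 1) (horizontal axis), with 1 point per gene tested. The 184 genes called lower (blue) form a band near a median of -0.77 across a wide range of levels, whereas most of the 66 genes called higher (red) lie just above 0; SAG12, low in a single mutant library, was not called.

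The number of calls rested on all 6 libraries. Leaving out any one of them reduced it to between 8 and 80, and without replicate 4 of the mutant it was 23 (13 higher and 10 lower), including 7 of the 184 falls and 12 of the 66 rises. The count also depended on which libraries shared the estimate of spread: with the 6 libraries alone, 309 genes were called, and with these 6 less replicate 4 of the mutant, a fit added after the data had been seen, 355 were called, including 162 of the 184 falls and 22 of the 66 rises. Only 8 of the 250 genes stayed called whichever of the 6 libraries was dropped. With the replicate number as a block, 9 genes were called, namely 2 of the 184 falls and 7 of the 66 rises. All 250 kept their direction in each of these fits. Groups that do not overlap ensure this when a library is left out, so it adds no support.

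The largest rise was in AT5G35935, a pseudogene on chromosome 5. It stood at 0.0203, 0.0162 and 0.00461 RPKM in wild type, with 7 reads in all, and at 5.07, 5.24 and 5.38 RPKM in the mutant, with 2771 reads. The read ratio was 410.0 (95% counting interval 199 to 1021), and the log2 fold change 2.62 ± 0.09 (adjusted p = 1.18e-09). The gene was thus near 0 in every wild-type library and at one steady level in every mutant library. The dvl1 quintuple had 4.58, 4.89 and 5.22 RPKM, while no library of either overexpression line exceeded 0.27 RPKM.

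Other transcripts without a coding annotation rose with narrow spreads. The lncRNA AT3G06355 was at 9.63, 9.43 and 8.66 RPKM in wild type and 21.4, 23.0 and 26.1 RPKM in the mutant (1.26 ± 0.12, adjusted p = 3.77e-04), with 18.8, 19.7 and 23.0 RPKM in the dvl1 quintuple. The lncRNA AT3G29644 was at 1.68, 1.6 and 1.58 RPKM against 4.10, 4.21 and 4.19 RPKM (0.98 ± 0.07, adjusted p = 9.84e-06). The protein-coding gene AT2G13550, of no annotated function, rose from 0.608, 0.762 and 0.691 RPKM to 2.21, 2.41 and 3.25 RPKM (1.09 ± 0.12, adjusted p = 0.00111). Each of these 3 genes overlaps another annotated gene, and counting ignored strand, so reads of the partners cannot be told apart. AT5G37940, annotated as a zinc-binding dehydrogenase, was the protein-coding gene with the largest rise, from 15.0, 19.2 and 17.65 RPKM to 41.1, 39.8 and 34.1 RPKM (1.11 ± 0.17, adjusted p = 0.0162). In the dvl1 quintuple its libraries were at 21.7, 20.3 and 35.6 RPKM, so a single one of them approached the rtfl9 quintuple. AT3G20340 (0.94 ± 0.14, adjusted p = 0.0162) and the non-coding AT5G38005 (0.93 ± 0.15, adjusted p = 0.024) completed the 10 largest rises together with AT4G04223, AT3G30122 and AT3G29633, which are described with the dvl1 quintuple further on.

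The 2 largest falls were also outside the coding genes. The pseudogene AT3G42090 had 1.93, 2.77 and 2.37 RPKM in wild type, 23 reads in all, and 0 reads in each mutant library, at least 7.40-fold lower when computed against 3 reads over the mutant group (adjusted p = 0.0162). Its call was kept in 3 of the 6 fits that each left out 1 library. The lncRNA AT2G05705 was at 2.51, 2.38 and 2.35 RPKM in wild type and 0.113, 0.129 and 0 RPKM in the mutant, or 57 reads against 2 (read ratio 0.0363, 95% counting interval 0.0043 to 0.137; adjusted p = 9.56e-04). AT2G05705 was low in every line other than wild type, at no more than 0.651 RPKM in any library of the other 3. AT3G42090, in contrast, was at 1.73, 1.28 and 0.24 RPKM in the dvl1 quintuple and at 3.04, 5.83 and 3.06 RPKM in dvl1-1D.

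**Figure D2:**
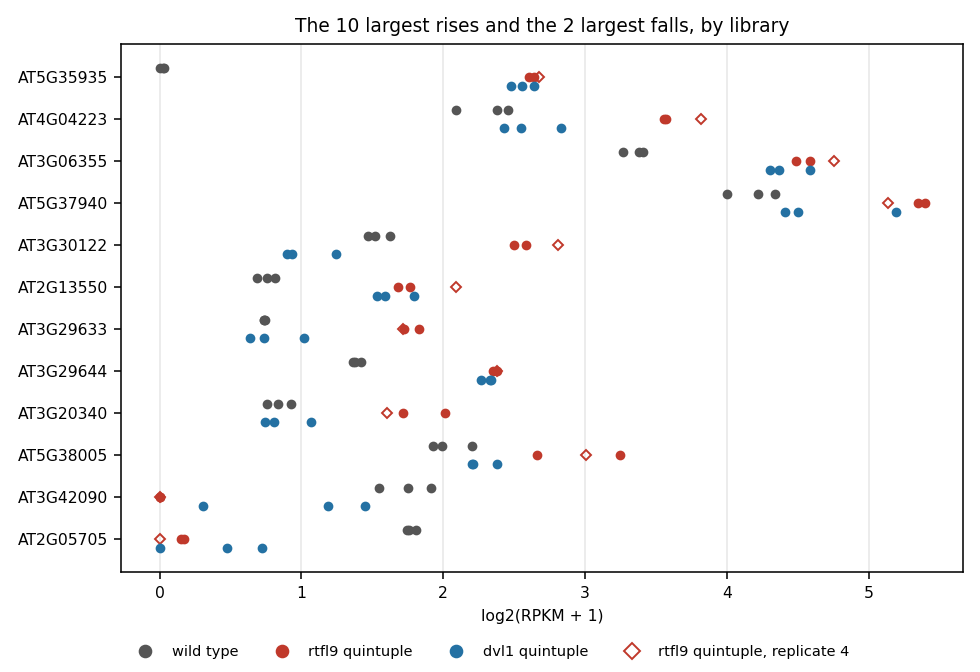
Levels in log2(RPKM + 1) of the 10 genes with the largest rises and the 2 with the largest falls among called genes, with 1 point per library of wild type (grey), the rtfl9 quintuple (red; open diamond, replicate 4) and the dvl1 quintuple (blue). In all 12 genes the red and grey points are separate, which a call on these libraries largely ensures. AT5G35935, AT3G06355, AT2G13550 and AT3G29644 have blue points beside the red ones. AT4G04223, AT3G30122, AT3G29633, AT3G20340 and AT5G38005 do not.

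HEI10 (AT1G53490), which encodes a RING protein that promotes meiotic crossovers in a dose-dependent way, was the protein-coding gene with the smallest adjusted p among the falls. It stood at 3.30, 2.49 and 3.23 RPKM in wild type and 1.26, 1.3 and 1.62 RPKM in the mutant (-0.74 ± 0.10, adjusted p = 0.00596). The mutant level was less than that of wild type in every library. The call was kept in 5 of the 6 fits that each left out 1 library. The dvl1 quintuple had 1.17, 1.18 and 1.2 RPKM. HEI10 overlaps 3 other annotated genes, so its unstranded count is uncertain. AT5G01610, of unknown function, fell from 15.9, 15.4 and 15.6 RPKM to 10.3, 10.7 and 8.88 RPKM (-0.60 ± 0.09, adjusted p = 0.0156). AT2G21990, annotated as MIZU-KUSSEI-like, fell from 3.30, 3.70 and 3.74 RPKM to 1.62, 1.64 and 1.55 RPKM (-0.81 ± 0.12, adjusted p = 0.0162).

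The protein-coding genes with the largest falls included several of the pollen grain and its tube. The glycosyl hydrolase gene AT5G20390 went from 22, 22.7 and 23.3 RPKM to 10.1, 12.0 and 8.60 RPKM (-1.09 ± 0.20, adjusted p = 0.028). BCP1, the homologue of a Brassica campestris pollen protein, went from 86.2, 107 and 107 RPKM to 48.4, 54.5 and 47.9 RPKM (-0.98 ± 0.22, adjusted p = 0.0464). APPB1, a pectin methylesterase inhibitor, went from 40.3, 52.2 and 47.7 RPKM to 25.2, 24.6 and 18.8 RPKM (-1.0 ± 0.19, adjusted p = 0.0283). Wild-type and mutant libraries were separate in each. None of these 3 calls was kept without replicate 4 of the mutant (adjusted p = 0.0951 for AT5G20390, 0.131 for BCP1 and 0.0951 for APPB1). The other genes among the 10 largest falls were the leucine-rich repeat genes AT4G33970 (-1.03 ± 0.18) and AT2G15880 (-0.99 ± 0.19), the ENTH-domain gene AT1G68110 (-0.98 ± 0.18), the secreted peptide gene RALFL26 (-0.98 ± 0.22) and AT4G39610 (-0.97 ± 0.18), another MIZU-KUSSEI-like gene.

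In the list of 19 mature pollen genes, 17 were tested, 2 fell and none rose, where 0.941% of all genes fell and 0.338% rose. This list, like the other lists, was chosen with earlier results of these data known. Its counts and shares are therefore a description and no independent support. The median log2 fold change of the 17 was -0.21, against 0.02 over all genes. RALFL19, a peptide that keeps the pollen tube wall intact, was at 32.7, 36.2 and 38.6 RPKM in wild type and 18.9, 22.6 and 18.6 RPKM in the mutant (-0.81 ± 0.15, adjusted p = 0.028). ANX2, a receptor kinase of the same pathway, was at 9.47, 11.1 and 9.85 RPKM against 5.62, 5.70 and 5.09 RPKM (-0.78 ± 0.18, adjusted p = 0.0475). The sugar transporter gene STP11 (-0.87 ± 0.20, adjusted p = 0.0532), the pectin methylesterase genes VGD1 (-0.56 ± 0.13, adjusted p = 0.0507) and VGDH1 (-0.75 ± 0.17, adjusted p = 0.0546) and the peptide gene RALFL4 (-0.65 ± 0.15, adjusted p = 0.0535) lay just outside the threshold. Without replicate 4 of the mutant, none of the 17 was called in the fit of all groups. With the 6 libraries alone, these 4 passed as well and 6 of the 17 fell. In a fit of these 6 less replicate 4, added after the data had been seen, 7 of the 17 fell.

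The list was not uniform. The receptor kinase ANX1, closely related to ANX2, was at 4.40, 4.49 and 4.35 RPKM in wild type and 4.02, 4.59 and 4.68 RPKM in the mutant (0.00 ± 0.08, adjusted p = 0.99). The proton pump gene HA6 (0.16 ± 0.14), the aquaporin gene TIP1;3 (0.13 ± 0.14) and the MADS-box gene AGL104 (0.11 ± 0.12) had values above 0 and did not pass. In 11 of the 17 genes (64.7%) all mutant libraries lay below all wild-type libraries, where 9.16% of all genes did. The summed level of the list was 656.1, 730.9 and 717.4 RPKM in wild type, 471.5, 503.0 and 545.1 RPKM in the mutant, and 539.8, 608.6 and 530.7 RPKM in the dvl1 quintuple. All mutant libraries were below all wild-type libraries, and the library that stands apart was the highest of the 3. The line overexpressing DVL8 had 602.4, 436.7 and 617.9 RPKM, also below all wild-type libraries. The other overexpression line had 792, 980 and 723 RPKM. A summed level below wild type was thus not particular to the rtfl9 quintuple or to the quintuple mutants.

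Gene families were then counted by their RefSeq descriptions or symbols; these families, and the genes named from them, were chosen after the values had been seen. Of all genes tested, 0.941% fell and 0.338% rose, which is the background for each family count that follows. Pectin methylesterases and their inhibitors are enzymes and proteins that set the stiffness of the pectin wall. Among genes with these annotations, 10 of 82 tested fell and none rose, with a median of -0.27. One of them, PMEI5, was at 3.55, 3.26 and 3.68 RPKM in wild type and 1.44, 1.93 and 1.45 RPKM in the mutant (-0.79 ± 0.12). Among pectate and pectin lyase-like genes 7 of 68 fell and 1 rose (median -0.04), and AT59, a pectate lyase gene, went from 40.5, 43.2 and 41.0 RPKM to 20.8, 23.5 and 18.7 RPKM (-0.96 ± 0.17). Among the RALF-like peptide genes 3 of 23 fell, namely RALFL15, RALFL19 and RALFL26.

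In signalling and transport families, too, a few members fell, against 0.941% of all genes, and the others did not pass. Of 23 calcium-dependent protein kinase genes 5 fell, CPK14, CPK16, CPK17, CPK24 and CPK26. CPK17, a kinase of pollen tube tip growth, was at 14.6, 16.0 and 15.6 RPKM in wild type and 7.84, 8.26 and 7.24 RPKM in the mutant (-0.90 ± 0.17, adjusted p = 0.028). The median of all 23 kinase genes was 0.03. Of 11 cation/H+ exchanger genes 4 fell, with CHX23 going from 26.3, 30.8 and 28.8 RPKM to 14, 15.9 and 14.5 RPKM (-0.91 ± 0.17, adjusted p = 0.028). Of 13 phosphoinositide kinase genes 4 fell, among them PIPK11 (-0.83 ± 0.16).

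Wall and surface genes of pollen were also among the falls. The arabinogalactan protein genes AGP6 (-0.57 ± 0.12) and AGP11 (-0.73 ± 0.16) fell, 2 of 24 in their family, and so did the cellulose synthase-like genes CSLD1 (-0.85 ± 0.14) and CSLD4 (-0.63 ± 0.13), 2 of 5. AGP11 was abundant, at 129.8, 148 and 135 RPKM in wild type and 77.2, 85.7 and 84.2 RPKM in the mutant. SPIK, the Shaker potassium channel of pollen, went from 4.77, 5.87 and 5.69 RPKM to 2.97, 3.51 and 3.10 RPKM (-0.62 ± 0.12, adjusted p = 0.0312), and the proton pump gene HA8 from 57.0, 64.0 and 63.0 RPKM to 37.8, 40.5 and 37.2 RPKM (-0.66 ± 0.13, adjusted p = 0.0283).

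**Figure D3:**
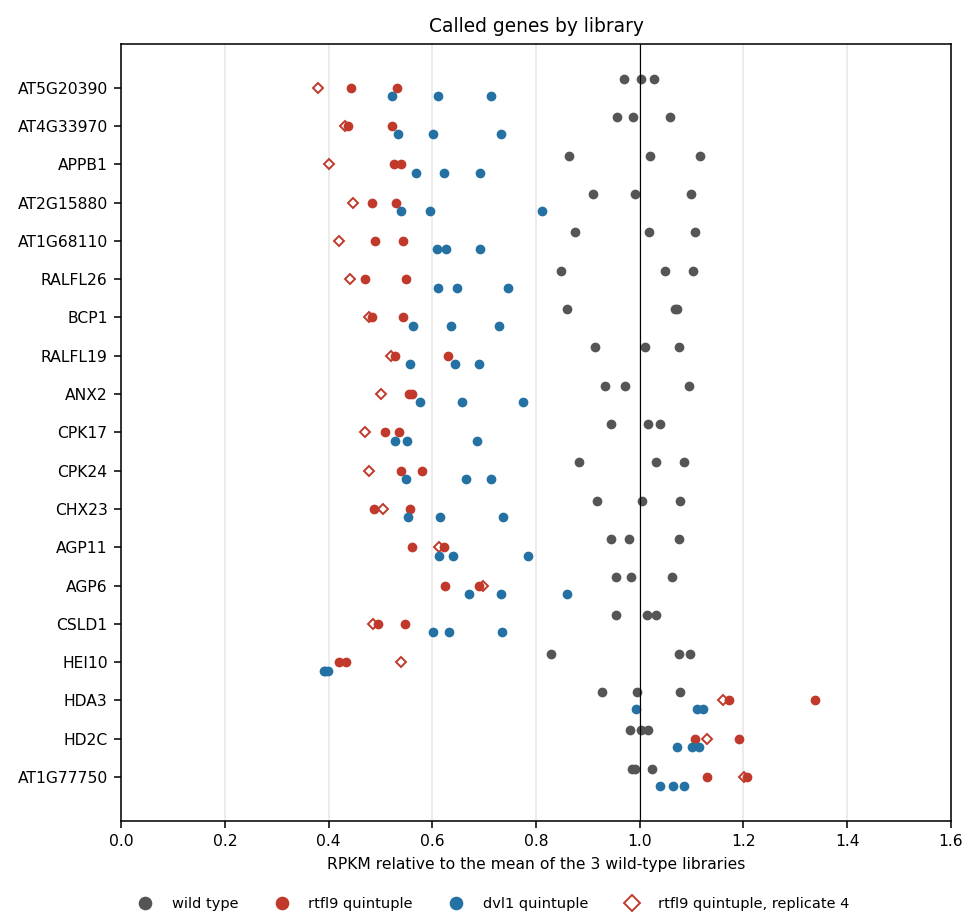
RPKM relative to the mean of the 3 wild-type libraries for 16 genes called lower and 3 called higher, with 1 point per library (wild type grey, rtfl9 quintuple red with replicate 4 as an open diamond, dvl1 quintuple blue). Red and grey points are separate in all 19 genes, which a call on these libraries largely ensures. Replicate 4 is the lowest mutant library in the genes from AT5G20390 to CSLD1 other than CHX23, AGP11 and AGP6, and the highest in HEI10.

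In the pollen coat and tapetum lists no gene was called, which at a background of 1.28% is no result about them. None of the 7 pollen coat genes passed, with a median of 0.04 and overlapping sums of 1438 to 1505 RPKM in wild type and 1499 to 1543 RPKM in the mutant. None of the 14 tested genes of the tapetum and exine passed either, although all 14 had values above 0, with a median of 0.40. Their summed level was 270.5, 259.6 and 310.4 RPKM in wild type, 303.0, 319.5 and 529.7 RPKM in the mutant and 370.1, 356.1 and 379.7 RPKM in the dvl1 quintuple. All 3 dvl1 quintuple libraries were above all wild-type libraries and above mutant replicates 1 and 2, and their median log2 fold change over wild type was 0.40 too. Replicate 4 of the mutant was far above the other 2 mutant libraries, which lay within or just above the wild-type range, and without it the median was 0.13. MS2, an exine lipid enzyme, had the smallest adjusted p (34.3, 24.8 and 30 RPKM against 32.6, 44.5 and 58.4 RPKM; 0.56 ± 0.19, adjusted p = 0.165). LAP5, a sporopollenin synthase, was at 61.4 RPKM in replicate 4 and at 30.3 and 27.5 RPKM in the other mutant libraries. The part that these anther levels play in the falls of pollen genes was not tested.

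Replicate 4 was far below the other mutant libraries in senescence genes. SAG12, a protease gene used as a marker of old tissue, was at 272, 371 and 395 RPKM in wild type, 245 and 294 RPKM in mutant replicates 1 and 2, and 25.5 RPKM in replicate 4 (-1.46 ± 0.63, adjusted p = 0.277). DOX1, a dioxygenase gene, was at 4.91, 11.8 and 0.59 RPKM in the mutant against 8.76, 12.9 and 12.7 RPKM in wild type. SAG13 (7.90 RPKM in replicate 4, against 31.0 and 25.9 RPKM), NAS3, KTI1, AT1G09500 and AT5G39520 had the same pattern, together with the tRNA gene AT1G28820, which was listed at 0 there. None of these 8 genes, chosen for their distance in replicate 4, was called. In the senescence list of 6 genes none passed, which at a background of 1.28% is no result about the list. Its median of -0.58 became -0.28 without replicate 4.

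In the other direction, replicate 4 was highest in the clock gene LHY, at 18.5 RPKM against 8.11 and 8.24 RPKM in the other mutant libraries and 10.2 to 10.8 RPKM in wild type. The acid phosphatase gene PAP25 was at 15.0 RPKM there against 5.42 and 6.23 RPKM, and the F-box gene AT1G30780 at 6.05 RPKM against 1.44 and 1.17 RPKM. The other 5 genes farthest above both other mutant libraries there were the small nuclear RNA U4.11p and the small nucleolar RNAs AT5G08515, AT5G58595, AT5G66562 and AT1G74456. Replicate 1 of the mutant was low in BAN, an enzyme of seed coat tannins, instead. BAN was at 5.82 RPKM there, against 20.5 and 14.9 RPKM in the other mutant libraries and 13.2 to 14.1 RPKM in wild type. Only 2 of the 8 genes in the young seed list were high enough to be tested.

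**Figure D4:**
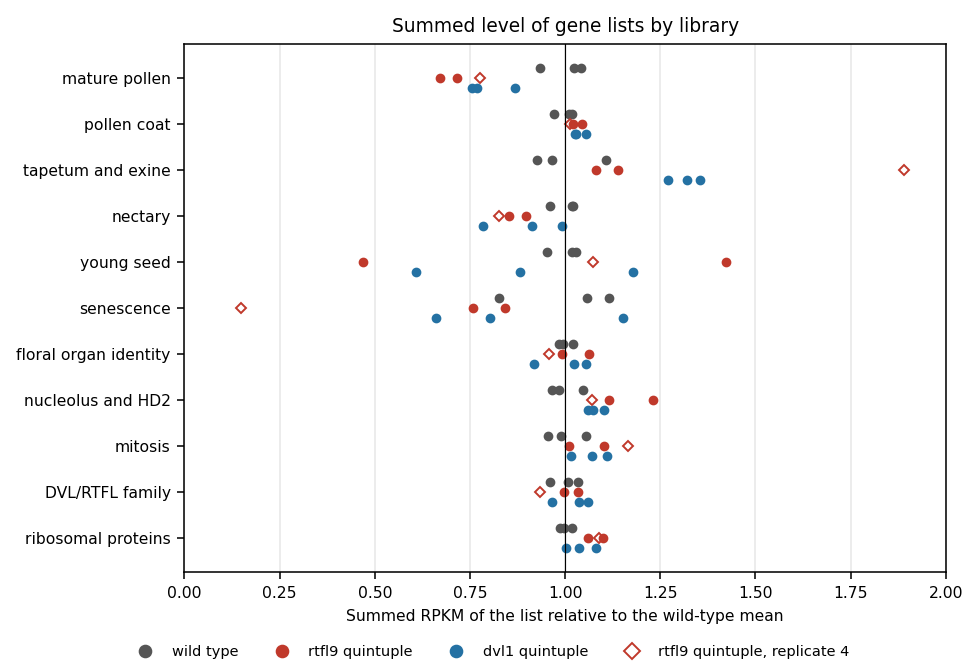
Summed RPKM of gene lists in each library relative to the mean of wild type (wild type grey, rtfl9 quintuple red with replicate 4 as an open diamond, dvl1 quintuple blue). The mature pollen list is below wild type in all 3 mutant libraries, and replicate 4 is far below the other mutant libraries in the senescence list (66.9 RPKM, against 342.1 and 379.1 RPKM). In the tapetum and exine list replicate 4 is the highest library, and all 3 dvl1 quintuple libraries (356.1 to 379.7 RPKM) are also above wild type.

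Among the rises were genes of ribosomes and the nucleolus, the site of ribosome assembly. Of the 8 genes of nucleolar proteins and HD2 histone deacetylases, 2 rose and none fell, where 0.338% of all genes rose. All 8 had values above 0, with a median of 0.19. HDA3, an HD2-type deacetylase, was at 85.8, 73.9 and 79.3 RPKM in wild type and 107, 93.4 and 92.5 RPKM in the mutant (0.29 ± 0.07, adjusted p = 0.0481). HD2C was at 68.8, 66.5 and 67.8 RPKM against 80.7, 74.9 and 76.6 RPKM (0.19 ± 0.04, adjusted p = 0.0384). The groups were separate in both, but neither passed with the 6 libraries alone (adjusted p = 0.123 and 0.0849).

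Genes with an RPS or RPL name, in which cytosolic and organellar ribosomes were not kept apart, had a median of 0.10. Of the 37 tested, 1 rose and none fell, where 0.338% of all genes rose. The gene that rose was AT1G77750, annotated as a ribosomal S13/S18 protein, at 26.2, 27.2 and 26.4 RPKM against 30.1, 32.1 and 32.0 RPKM (0.23 ± 0.04, adjusted p = 0.0274). A family counted after the values had been seen held 314 tested genes with ribosomal protein in their description, with a median of 0.11. Of these 314 genes 10 rose and 1 fell, where 0.338% of all genes rose and 0.941% fell. In 166 of them (52.9%) all mutant libraries were above all wild-type libraries, against 12.1% of all genes. Their summed level was 56306 to 58120 RPKM in wild type, 60543 to 62871 RPKM in the mutant and 57254 to 61846 RPKM in the dvl1 quintuple. RPSAb had the largest rise among them (14.1, 12.7 and 12.5 RPKM against 18.7, 17.0 and 15.1 RPKM; 0.34 ± 0.07, adjusted p = 0.0312). With the 6 libraries alone, 3 of the 314 rose and 2 fell. Many ribosomal genes have near-identical copies, between which reads may have been divided. Of the called genes named here, AT4G33970, RALFL26, AT3G20220, HDA3, RPSAb, HA8, CPK24 and CPK26 each overlap 1 other annotated gene, so their unstranded counts are uncertain too.

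With 1.28% of all genes called, lists of this size would hold few or no calls at the background share, so the counts that follow show nothing particular to them. None of the 14 tested genes of floral organ identity, 18 of meristem and boundary, 20 of carpel and fruit patterning, 16 TCP transcription factors, 28 Aux/IAA genes, 16 of brassinosteroids, 17 of gibberellin, 10 of cytokinin response, 19 of jasmonate or 31 of the circadian clock passed. Their medians lay between -0.08 and 0.04. The member with the smallest adjusted p was CDF1 in the clock list (7.06, 8.51 and 8.78 RPKM against 5.77, 6.90 and 6.15 RPKM; -0.32 ± 0.07, adjusted p = 0.0516) and TCP11 among the TCP genes (21.7, 21.4 and 25.1 RPKM against 27.8, 26.7 and 30.7 RPKM; 0.31 ± 0.08, adjusted p = 0.0794). ANT, a growth regulator of floral organs, followed in the meristem and boundary list (0.21 ± 0.06, adjusted p = 0.108). Of 52 tested SAUR genes 1 fell, AT3G20220, from 23.9, 26.0 and 26.1 RPKM to 14.1, 14.8 and 9.27 RPKM (-0.97 ± 0.21, adjusted p = 0.0385).

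The growth and stress lists also held no called gene, which at a background of 1.28% is likewise no result about them. They were cell shape and organ growth (20 genes tested; RIC1, a ROP effector, had the smallest adjusted p, 0.0995, at -0.68 ± 0.19), expansins (21), xyloglucan-modifying XTH genes (20), D-type cyclins and CDK inhibitors (8), DNA replication (13), mitosis (16), flowering time (14), salicylate and defence (17), WRKY transcription factors (45), copper response (11), flavonoids (12), nectary (5), trichomes, epidermis and stomata (18), GH3 (7), heat and chaperones (8), rapid wound and touch response (16), sugar starvation and darkness (6), photosystem proteins (51), young seed (2) and cysteine-rich receptor-like kinases (18). WRKY70, a regulator of salicylate and jasmonate defence, had the largest value with the smallest adjusted p among the defence genes (24.9, 22.1 and 27.5 RPKM against 34.6, 34.1 and 45.4 RPKM; 0.59 ± 0.19, adjusted p = 0.155). MAF5, a repressor of flowering, was at 3.11, 1.02 and 1.99 RPKM against 3.14, 3.36 and 5.16 RPKM (0.72 ± 0.22, adjusted p = 0.133), and its groups were separate by a margin smaller than the spread within either. The 13 DNA replication genes all had values above 0, with a median of 0.10, and the 16 mitosis genes a median of 0.12. Of the 20 cell shape and organ growth genes, 17 had values above 0, unlike RIC1, and the median was 0.11.

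Set directly against the dvl1 quintuple, the rtfl9 quintuple differed in 3 genes (0.0153% of those tested), all of them higher in the rtfl9 quintuple. AT3G30122, a transcribed pseudogene, was at 4.66, 4.99 and 6.02 RPKM in the rtfl9 quintuple, 0.911, 0.864 and 1.37 RPKM in the dvl1 quintuple and 2.08, 1.86 and 1.77 RPKM in wild type (rtfl9 over dvl1 quintuple 1.61, adjusted p = 2.21e-04). The non-coding AT4G04223 was at 10.9, 10.7 and 13.1 RPKM, against 6.11, 4.85 and 4.38 RPKM in the dvl1 quintuple and 4.48, 3.26 and 4.20 RPKM in wild type (1.05, adjusted p = 0.00641). AT3G29633, of no annotated function, was at 2.30, 2.56 and 2.29 RPKM, against 0.559, 0.664 and 1.02 RPKM and 0.667, 0.674 and 0.667 RPKM (0.96, adjusted p = 0.00641). In these 3 genes the rtfl9 quintuple libraries lay above all libraries of both other groups.

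None of the 17 tested mature pollen genes differed between the mutants at the threshold. With 0.0153% of all genes passing, this is no result about the list. Both mutants were compared with the same wild-type libraries, so their changes are given side by side only. Over the 184 genes that fell, the median log2 fold change was -0.77 in the rtfl9 quintuple and -0.52 in the dvl1 quintuple. Over the 66 that rose it was 0.26 and 0.14. These genes were chosen by their calls in the rtfl9 quintuple, which favours larger values there. The smaller medians therefore do not show a weaker change in the dvl1 quintuple, and the direct comparison below covers the same chosen genes. For CPK17 the values were -0.90 and -0.71, for BCP1 -0.98 and -0.63, for APPB1 -1.0 and -0.65 and for RALFL19 -0.81 and -0.64. None of the 184 passed in the direct comparison, where their median was -0.23 and 33 had an unadjusted p under 0.05. Of the 66, 3 passed, their median was 0.13 and 35 had an unadjusted p under 0.05. Over all 19549 genes tested, 851 had an unadjusted p under 0.05 in that comparison. The choice of the 184 and the 66 favours such values here too. That the 184 missed the threshold does not show that the mutants had the same levels.

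**Figure D5:**
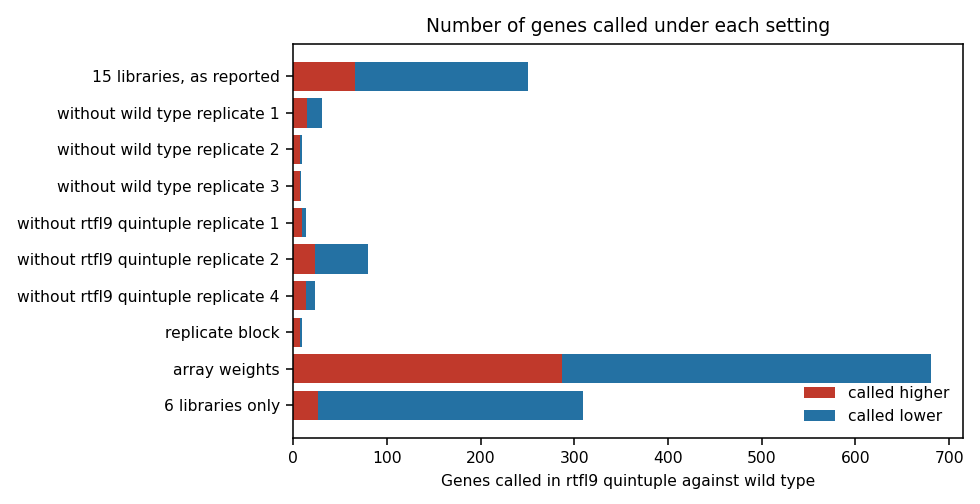
Number of genes called in the rtfl9 quintuple against wild type (called higher in red, called lower in blue) in the fit as reported, with each of the 6 libraries left out, with the replicate number as a block, with array weights and with the 6 libraries alone. The count falls from 250 to between 8 and 80 when a library is left out and to 9 with the replicate block, and reaches 681 with array weights.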

How the data were processed

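The deposited values were RPKM per gene, computed by the authors from unstranded read counts, per the name of the table in the labels. The submitters' processing notes list cutadapt, HISAT2 and HTSeq with no version. No genome build is given in these sources. How reads shared by near-identical copies were counted is not given either. Names came from RefSeq's TAIR10.1 annotation, which matched 37051 of 37336 identifiers; no coordinates were taken from it. Whole reads followed from the RPKM steps for 29911 of 29911 genes above 0 (within 0.005 of a read) and gave the depths and read totals. Intervals and floors (3 reads over a group) cover counting error only.

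Replicates, 3 per group, are independent biological ones per the labels' design text. Chi-square statistics per gene between replicates were 2.41 or more, so none was merged. Genes with at least 1 RPKM in 3 of the 6 libraries were tested on log2(RPKM + 1) with limma 3.58.1 (R 4.3.3). The model had a mean-variance trend and a mean per group in a single fit of all 15 libraries. It was also run on simulated data with 2-fold changes and no library standing apart. That run does not bear on smaller changes or on a library that stands apart. The log2(RPKM + 1) scale understates changes of low genes. P-values are two-sided and adjusted by Benjamini-Hochberg over all 19549 genes. A permutation test of 3 against 3 libraries cannot go below 0.1. Errors are SE.

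Named genes were the mutated genes and their family, the 10 largest changes and 5 smallest p-values per direction, up to 4 called members (or the best) per list, 8 genes per direction farthest out in mutant replicate 4, and the largest differences from the dvl1 quintuple. A last part of the rule, genes called at least 2-fold without mutant replicate 4, added only AT3G29797. The 38 lists held 850 members; 10 further entries matched no name and were left out. Members and lists were chosen with earlier results of these data known. Alternatives were the pseudocount, filters, scalings, array weights, voom on the recovered reads, a replicate block and libraries left out.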

Additional observations from a re-analysis of the deposited data

Results flagged for a closer look

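The genes flagged here differed between the 2 quintuple mutants in the direct test of the difference. AT3G30122 was higher in the rtfl9 quintuple than in the dvl1 quintuple by 1.61 on the log2 scale, AT4G04223 by 1.05 and AT3G29633 by 0.96. All 3 rtfl9 quintuple libraries lay above all 3 dvl1 quintuple libraries in each. AT4G04223 was also high in dvl1-1D, at 32.5, 24.9 and 30.2 RPKM. Groups of 3 libraries are too small for the test of single libraries, so no library was flagged by one.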

How the results depend on the processing

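The 250 calls became 55 with no filter on RPKM (28555 genes tested), 681 with array weights and 498 with array weights in the 6 libraries alone, and lay between 8 and 256 with a library left out. Genes changed at least 2-fold were 12, but 34 with a pseudocount of 0.1 and 39 with voom on the recovered reads and 7 to 18 with a library left out. The 3 genes that differed between the mutants became 5 with quantile normalization or array weights, 1 without both libraries that stand apart (mutant replicate 4 and 35S:DVL8 replicate 2), and 1 to 6 with a library left out. With the replicate block, 9 genes were called (7 higher, 2 lower), 6 at least 2-fold and 1 between the mutants. Whether the replicate numbers pair the libraries cannot be told from so few pairs. Wild type and the rtfl9 quintuple share only replicates 1 and 2, whose deviations from their group means correlated at 0.094 and 0.153. Pairs of unlike number from these 2 groups lay between -0.18 and 0.057. The 2 mutants share replicates 2 and 4, which correlated at -0.057 and 0.396, the latter the highest of all pairs compared and involving the mutant library that stands apart. The fits of the 6 libraries without mutant replicate 4 and with array weights were added after the data had been seen. All 250 called genes kept their direction under every alternative run, which groups that do not overlap largely ensure. LHY, not called, turned from 0.03 to -0.33 and passed (adjusted p = 0.0402) with the 6 libraries less mutant replicate 4. The cause of these shifts was not tested. Leaving out wild-type replicates 1, 2 and 3 gave 30, 9 and 8 calls, and leaving out mutant replicates 1, 2 and 4 gave 13, 80 and 23. Leaving out dvl1 quintuple replicate 2, which enters only through the shared spread, gave 146. Depth limits the low genes most: RTFL11 and DVL8 had too few reads to be tested.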

Other observations

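AT3G29797, annotated in the ECA1 gametogenesis family, was at 3.35, 4.76 and 3.51 RPKM in wild type and 0.941, 1.82 and 4.22 RPKM in the rtfl9 quintuple. Mutant replicates 1 and 2 were below every wild-type library, and replicate 4 was within their range. It was called at least 2-fold lower without replicate 4 (-1.05 on the log2 scale) and not with it (-0.66 ± 0.25, adjusted p = 0.223).

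Among the rises outside the groups described above, and chosen after their values were seen, LBD26, a LOB-domain transcription factor gene, was at 1.6, 1.76 and 1.61 RPKM in wild type and 3.21, 3.88 and 4.62 RPKM in the rtfl9 quintuple (0.87 ± 0.16, adjusted p = 0.028). Its value in the dvl1 quintuple was 0.04. UMAMIT31, an amino acid transporter-type gene, was at 5.49, 4.36 and 3.26 RPKM against 8.18, 6.36 and 6.95 RPKM (0.62 ± 0.13, adjusted p = 0.0328). YUC6, an enzyme of auxin synthesis, was at 4.29, 4.28 and 3.82 RPKM against 5.28, 5.60 and 5.84 RPKM (0.36 ± 0.08, adjusted p = 0.0439).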
